A study of Mus musculus with 8 samples.

Results

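The amino acid transporter genes Slc7a5, Slc3a2, Slc7a1, Slc7a6, Slc7a11, Slc1a4, Slc1a5, Slc38a1 and Slc38a2, 9 in all, were measured across 4 groups of mouse splenic T cells. They were chosen by name as plasma membrane carriers of T cells, with earlier results of these data known. A probe was taken as a member's when the array design gave it a RefSeq transcript of that gene, and each gene was represented by its brightest probe over the 8 arrays. Of 55681 probes on the array 13 matched the 9 genes. Of the 9 genes 8 were among the 15138 that passed the filter on dim probes and were tested, and Slc7a11 was not.

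RNA was measured on one-colour Agilent arrays, 2 in each group. Wild-type (WT) C57BL/6 mice, Lsp1+/+, were compared with Lsp1-/- mice (KO), which had been backcrossed to C57BL/6 for 10 generations and were matched for age and sex. Mice were 8 to 12 weeks old. Cells of each genotype were kept in medium or stimulated for 6 h with anti-CD3/CD28 antibodies, which trigger the T cell receptor and costimulation through CD28. Lsp1 encodes a leukocyte protein that binds F-actin, and the study is about how it affects the migration of T cells in rheumatoid arthritis. The labels name neither the deleted part of Lsp1 nor the way T cells were separated. Nor do they give the animals behind each array, so the p-values cover the spread among these arrays, which could be technical only.

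A resting T cell takes up few amino acids, and activation through the T cell receptor is known to raise uptake before growth and division. Leucine and other large neutral amino acids enter through LAT1, a heterodimer of the light chain SLC7A5 and the heavy chain SLC3A2. SLC7A6 is another light chain that pairs with SLC3A2 and exchanges cationic for neutral amino acids. SLC7A11 pairs with SLC3A2 as well, to import cystine against glutamate. SLC7A1 carries arginine and lysine without a heavy chain. SLC1A5 and SLC1A4 exchange small neutral amino acids, glutamine among those of SLC1A5, and SLC38A1 and SLC38A2 carry glutamine and alanine with sodium. Leucine reaching the cytosol is sensed by the mTORC1 pathway, and the transcription factors MYC and ATF4 are known to act on several of these genes.

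The values below are normalized log2 signals, meaning log2 of an array's processed spot intensity minus the 75th percentile of that array. A value of 0 thus equals the 75th percentile, and levels of different genes cannot be compared, since each probe has its own brightness. A change is a difference of group means with ± its standard error in limma's fit over all 8 arrays, and calls were made below an adjusted p of 0.05 (Benjamini-Hochberg over all genes tested). A bulk RNA measurement cannot tell fewer cells of a type from less RNA per cell.

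Lsp1 was 7.48 and 7.24 in medium and 7.06 and 6.99 after stimulation in WT cells, and 3.64 and 3.48 in medium and 3.69 and 3.65 after stimulation in KO cells. It was lower on every KO array, by -3.79 ± 0.13 in medium (limma, adjusted p = 0.00127) and -3.35 ± 0.13 after stimulation (adjusted p = 0.00268). The second call was lost without stimulated WT replicate 2 (-3.39, adjusted p = 0.0602). All 9 measured T cell markers of 10 listed, Cd3e and Cd4 among them, were well above background on every array. The 2 arrays of a group differed more in KO than in WT cells. Their root mean square SD over genes was 0.25 in both WT groups, and in KO cells 0.43 in medium and 0.45 after stimulation. The log2 of the summed linear signals of 11 neutrophil markers was 7.16 to 8.00 on the WT arrays. It was 7.58 and 7.24 on the replicate 1 KO arrays, and 9.58 and 8.78 on the replicate 2 KO arrays. The median log2 level of these markers was 0.09 to 1.63 on the WT arrays. On the replicate 1 KO arrays that median was 0.61 and -0.40, and 5.86 and 5.13 on the replicate 2 KO arrays. Results that rest on those 2 arrays are therefore also given without them.

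Promoter sequences were available for 6 of the 9 genes, in 8 windows of 300 bases. Slc7a5, Slc1a5 and Slc38a1 had no window, so their promoters were not searched for any motif. Sequences of 3 are shown because Slc7a1 and Slc1a4 were called higher on stimulation in WT cells and Slc7a11 stayed at background. Each runs from 150 bases before to 10 after the RefSeq start site (GRCm38.p6), on the minus strand of chr5:148399895-148400054, chr11:20332704-20332863 and chr3:50443604-50443763. Capitals mark TGANTCA in Slc7a1 and TGATGNAA, read on either strand, in the other 2.
Slc7a1: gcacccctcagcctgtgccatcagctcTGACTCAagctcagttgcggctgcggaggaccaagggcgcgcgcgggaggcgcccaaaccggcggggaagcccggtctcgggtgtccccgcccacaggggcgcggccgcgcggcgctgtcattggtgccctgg
Slc1a4: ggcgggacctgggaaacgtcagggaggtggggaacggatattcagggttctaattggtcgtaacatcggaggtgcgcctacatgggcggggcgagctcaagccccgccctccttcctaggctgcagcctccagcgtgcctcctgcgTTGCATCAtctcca
Slc7a11: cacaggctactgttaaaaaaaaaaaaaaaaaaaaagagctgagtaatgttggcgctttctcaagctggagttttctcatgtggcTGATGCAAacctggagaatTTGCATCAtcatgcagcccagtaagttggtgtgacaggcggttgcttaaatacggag
The AP-1 letters TGANTCA stood at -123 to -117 in Slc7a1 and in no other member window, against 7.81% of all 32851 promoter windows. TGATGNAA, the core of the C/EBP-ATF element that ATF4 is known to bind, stood at 2 places in Slc7a11, at -66 to -59 and at -47 to -40. It also stood once in Slc1a4, at -4 to 4, so in 2 of 8 member windows against 3.97% of all windows. The antioxidant response element core TGACNNNGC was in 4 of 8 member windows against 12.4% of all. It lay in Slc7a1, in both windows of Slc7a6, which overlap and share the site, and in Slc38a2. The E-box CACGTG, the sequence bound by MYC, was in 0 of 8 member windows and in 7.15% of all. Both strands were searched, and no 2 different motifs overlapped in a member window. These are matches of letters in a window and not measured binding.

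In WT cells anti-CD3/CD28 raised 4 of the 8 tested transporters and lowered none. Slc7a5 and Slc7a1 rose more than 2-fold, Slc1a4 and Slc1a5 by about 1.6-fold. Slc7a6, Slc38a1, Slc38a2 and Slc3a2 were not called. Of all genes 10.3% were called in this comparison, and 6.42% were called higher. The median change of the 8 transporters was 0.53, and that of all genes -0.09. Both stimulated WT arrays lay above both WT medium arrays for 7 of the 8 genes, and 27.4% of all genes did the same. The 4 calls were lost once any 1 of the 4 WT arrays was left out, and so were most calls over all genes. Such a fit leaves 1 array in a group. The changes of the 4 transporters stayed between 0.60 and 1.45.

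**Figure D1:**
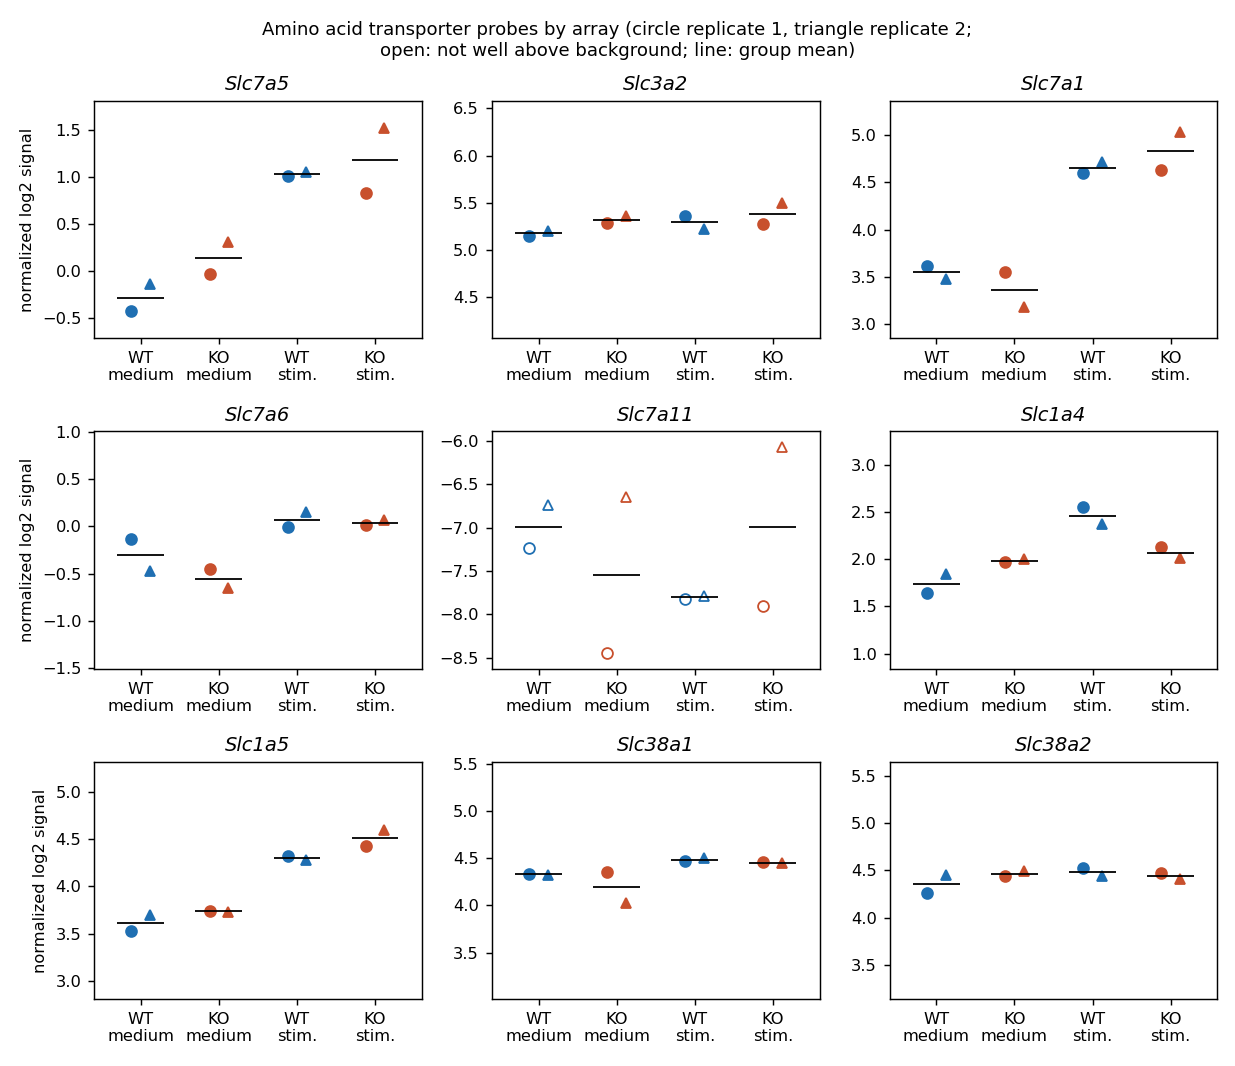
Normalized log2 signal (vertical axis, log2 units relative to the 75th percentile of the array) of the brightest probe of each of the 9 transporter genes, by group. Circles are replicate 1, triangles replicate 2, open symbols are not well above background and lines are group means of 2 arrays; panels have different ranges. Slc7a5, Slc7a1, Slc7a6, Slc1a5, Slc38a1 and, narrowly, Slc1a4 are higher on all 4 stimulated arrays than on all 4 medium arrays. Slc1a4 reaches 2.55 and 2.38 in stimulated WT cells, and every Slc7a11 symbol is open.

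Slc7a5, the transporting chain of LAT1, measured -0.42 and -0.14 in medium and 1.01 and 1.05 after stimulation in WT cells, and -0.03 and 0.31 in medium and 0.83 and 1.52 after stimulation in KO cells. All 4 stimulated arrays lay above all 4 medium arrays, and the stimulated KO arrays lay on both sides of the stimulated WT arrays. The change was 1.31 ± 0.25 in WT cells (2.48-fold, limma, adjusted p = 0.0309). In KO cells it was 1.04 ± 0.25 (2.06-fold) and missed the threshold (adjusted p = 0.0639). That KO value passed in 5 of 21 alternatives: without stimulated KO replicate 1 (1.38, adjusted p = 0.0228), with trend and robust variance (adjusted p = 0.0334), among probes well above background on all 8 arrays (adjusted p = 0.0472), and with either replicate block (adjusted p = 0.0325 over all arrays and 0.0140 within genotype).

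A second Slc7a5 probe differed in size. The probe A_55_P2017972 measured -1.91 and -1.99 in medium and -1.69 and -1.83 after stimulation in WT cells, and -1.78 and -1.92 in medium and -1.93 and -1.65 after stimulation in KO cells. It was well above background on all 8 arrays. Its change was 0.19 ± 0.14 in WT cells (limma, adjusted p = 0.404) and 0.06 ± 0.14 in KO cells (adjusted p = 0.842), so the rise of Slc7a5 was seen with the brightest probe A_55_P1973941 only. Both probes are assigned to Slc7a5 by the array design.

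Slc3a2, the heavy chain that carries SLC7A5, SLC7A6 and SLC7A11 to the membrane, was not called in either genotype. It measured 5.15 and 5.20 in medium and 5.36 and 5.22 after stimulation in WT cells, and 5.28 and 5.36 in medium and 5.27 and 5.50 after stimulation in KO cells. The change was 0.12 ± 0.12 in WT (limma, adjusted p = 0.574) and 0.06 ± 0.12 in KO cells (adjusted p = 0.793). Its 95% interval in WT cells, -0.19 to 0.42, ended below the 0.69 at which the interval of Slc7a5 began. Slc7a5 minus Slc3a2, taken on each array, was -5.57 to -5.05 on the 4 medium arrays and -4.44 to -3.97 on the 4 stimulated arrays. These ranges did not overlap, and the mean difference of 1.08 had an exact two-sided permutation p = 0.0286, the smallest that 4 arrays against 4 can give. Adjusted over the 4 transporter pairs compared it was 0.114. With the mean of both Slc7a5 probes the difference was 0.56 (adjusted permutation p = 0.0571), and with the second probe alone, added after seeing the data, it was 0.03 (adjusted permutation p = 0.657).

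Slc7a6, the other light chain, was -0.13 and -0.47 in medium and -0.01 and 0.15 after stimulation in WT cells, and -0.45 and -0.65 in medium and 0.02 and 0.06 after stimulation in KO cells. Every stimulated array lay above every medium array. The change was 0.37 ± 0.16 in WT (limma, adjusted p = 0.174) and 0.59 ± 0.16 in KO cells (adjusted p = 0.0753), and neither was called. Slc7a5 exceeded Slc7a6 in its response by 0.69 over both genotypes (exact permutation p = 0.0857, 0.171 adjusted over the 4 pairs), and by 0.17 with the mean of the Slc7a5 probes. With the second Slc7a5 probe alone the direction turned, to -0.36 (adjusted permutation p = 0.286). The responses of both light chains were thus not told apart.

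Slc7a11, the cystine carrier, was not well above background on any of the 8 arrays. Its processed signal was 8.90 and 13.5 in medium and 5.31 and 5.73 after stimulation in WT cells, and 3.68 and 14.6 in medium and 5.90 and 20.3 after stimulation in KO cells. The array's 75th percentile was 1200 to 1469 in the same units. On each array at most 34.3% of probes had a signal as low or lower. No direction or fold is given for it, since both sides of every comparison were at background.

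Slc7a1, the arginine and lysine carrier CAT1, rose in both genotypes. It measured 3.62 and 3.47 in medium and 4.60 and 4.72 after stimulation in WT cells, and 3.55 and 3.18 in medium and 4.64 and 5.04 after stimulation in KO cells. The lowest stimulated array was above the highest medium array by nearly 1 log2 unit. The change was 1.11 ± 0.19 in WT (2.16-fold, limma, adjusted p = 0.0228) and 1.48 ± 0.19 in KO cells (2.78-fold, adjusted p = 0.00993). Without KO medium replicate 2 the KO change was 1.29 (adjusted p = 0.0553), and without both replicate 2 KO arrays it was 1.09 (adjusted p = 0.0570). By absolute change it stood at place 1068 of the 15138 genes in WT and 461 in KO cells.

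Slc1a5, the exchanger ASCT2, was 3.52 and 3.70 in medium and 4.32 and 4.28 after stimulation in WT cells, and 3.74 and 3.73 in medium and 4.43 and 4.60 after stimulation in KO cells. Here too the stimulated and medium arrays did not overlap in either genotype. The change was 0.69 ± 0.12 in WT (1.61-fold, limma, adjusted p = 0.0230) and 0.78 ± 0.12 in KO cells (1.71-fold, adjusted p = 0.0162). Its second probe, A_55_P2136318, gave 0.74 ± 0.12 (adjusted p = 0.0206) and 0.75 ± 0.12 (adjusted p = 0.0196). Both probes of Slc1a5 were therefore called in both genotypes. The KO call of the brightest probe was lost without either KO medium array, stimulated KO replicate 2 or either stimulated WT array (adjusted p = 0.0582 to 0.0809). Without both replicate 2 KO arrays the KO change was 0.69 (adjusted p = 0.119).

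Slc1a4, the exchanger ASCT1 of alanine, serine, cysteine and threonine, rose in WT cells. It was 1.64 and 1.84 in WT medium and 2.55 and 2.38 in stimulated WT cells, a change of 0.72 ± 0.13 (1.65-fold, limma, adjusted p = 0.0238). In KO cells it was 1.97 and 2.004 in medium and 2.13 and 2.01 after stimulation. These KO arrays differed by 0.09 ± 0.13 (adjusted p = 0.719). The KO arrays, medium and stimulated, all lay between the WT medium and the WT stimulated arrays. The changes of Slc1a5 and Slc1a4 differed by -0.03 in WT and by 0.69 in KO cells. Over both genotypes the difference was 0.33 (exact permutation p = 0.143, 0.190 adjusted over the 4 pairs).

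Of the sodium-coupled carriers, Slc38a1 measured 4.34 and 4.32 in medium and 4.47 and 4.50 after stimulation in WT cells, and 4.36 and 4.02 in medium and 4.46 and 4.45 after stimulation in KO cells. Stimulated arrays were above medium arrays in both genotypes, by 0.16 ± 0.14 in WT (limma, adjusted p = 0.484) and 0.26 ± 0.14 in KO cells (adjusted p = 0.288). Its other probes gave larger values. A_55_P2161640 changed by 0.24 and 0.30, and the dimmest, A_52_P232648, by 0.57 ± 0.15 in WT (adjusted p = 0.0614) and 0.67 ± 0.15 in KO cells (adjusted p = 0.0458), which passed.

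Slc38a2, a carrier known to respond to amino acid shortage, was 4.26 and 4.45 in medium and 4.52 and 4.44 after stimulation in WT cells, and 4.44 and 4.49 in medium and 4.47 and 4.40 after stimulation in KO cells. Medium and stimulated arrays overlapped in both genotypes. Its change was 0.13 ± 0.12 in WT (95% interval -0.15 to 0.41) and -0.03 ± 0.12 in KO cells (-0.31 to 0.25). Slc38a2 minus Slc38a1 changed by -0.16 on stimulation (exact permutation p = 0.229, the same after adjustment over the 4 pairs), by -0.31 with the mean of the Slc38a1 probes, and by -0.57 with the dimmest of them.

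**Figure D2:**
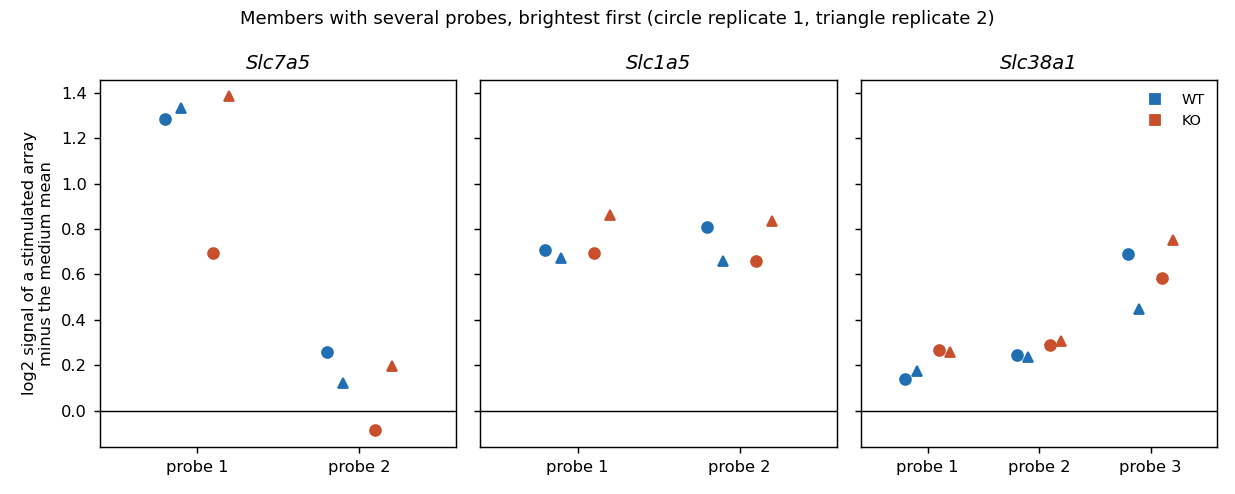
Response of each probe of the 3 transporters that have several, plotted as the normalized log2 signal of each stimulated array minus the medium mean of its genotype. Probes run from brightest to dimmest, circles are replicate 1 and triangles replicate 2. The Slc7a5 probes separate (1.31 against 0.19 in WT cells), both Slc1a5 probes lie together, and the dimmest Slc38a1 probe has the highest values of that gene.

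In KO cells 2 of the 8 tested transporters were called higher on stimulation, Slc7a1 and Slc1a5, and none lower. Of all genes 8.13% were called in this comparison, and 5.85% were called higher. The median change of the transporters was 0.43, and that of all genes -0.08. Stimulated KO arrays lay above KO medium arrays for 6 of the 8, and 22.8% of all genes did so. Without both replicate 2 KO arrays neither call held, and the changes were 1.09 (Slc7a1) and 0.69 (Slc1a5). At least 1 call was also lost without either KO medium array, stimulated KO replicate 2 or either stimulated WT array. Each of these fits leaves 1 array in a group, and most calls over all genes were lost in them too. At an unadjusted p below 0.05 the full set had 4 of 8, and 3844 of all 15138 genes. On stimulation 11 of 11 measured neutrophil markers had negative changes in each genotype, with medians of -0.68 in WT and -0.92 in KO cells and none called. T cell markers had medians of -0.27 and -0.32. The part of these shifts in the transporter results was not tested.

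**Figure D3:**
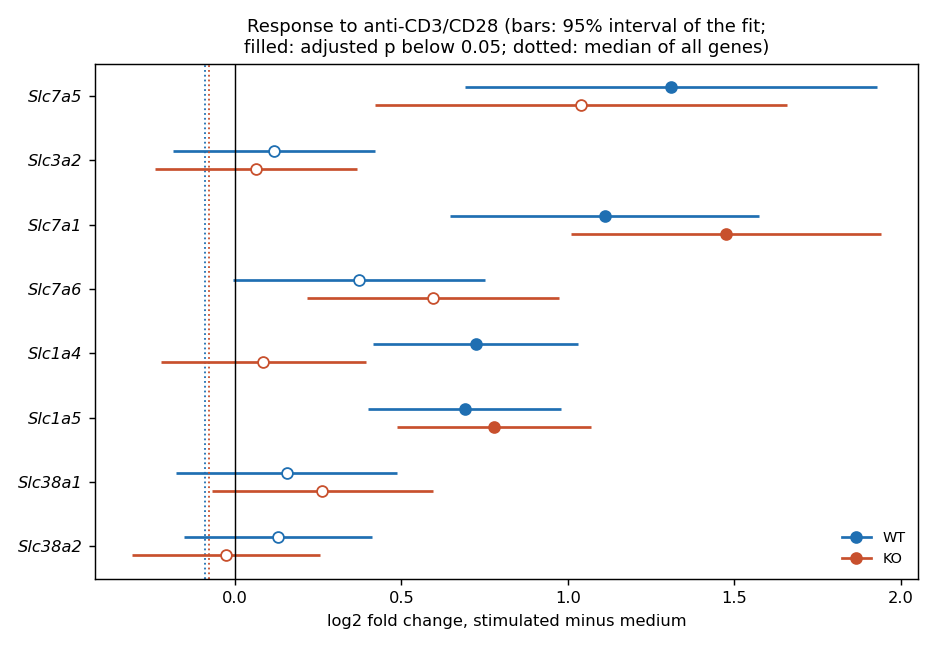
Log2 fold change, stimulated minus medium (horizontal axis), of the 8 tested transporters in WT (blue) and KO (red) cells, with 95% intervals of the fit as bars. Filled points have an adjusted p below 0.05, and dotted lines are the medians of all genes, -0.09 and -0.08. Slc7a1 and Slc1a5 are filled in both genotypes, Slc7a5 and Slc1a4 in WT cells.

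Between genotypes no transporter was called. In medium 0 of 8 were called, and 0 had an unadjusted p below 0.05. In that comparison 1 gene of all 15138 was called, 0.00661%, and 865 had an unadjusted p below 0.05. The changes ran from -0.25 (Slc7a6) to 0.42 (Slc7a5), with a median of 0.12 against -0.06 for all genes. Slc7a5 changed most, by 0.42 ± 0.25 (limma, adjusted p = 0.736) with a 95% interval of -0.20 to 1.04. Without KO medium replicate 2 its change was 0.25.

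After stimulation 0 of 8 transporters differed between genotypes by the adjusted test (limma), and 1 had an unadjusted p below 0.05. Of all 15138 genes 3 were called, 0.0198%, and 762 had an unadjusted p below 0.05. That transporter was Slc1a4, at 2.13 and 2.01 on the KO arrays and 2.55 and 2.38 on the WT arrays. KO minus WT was -0.39 ± 0.13 (1.31-fold lower, unadjusted p = 0.0203, adjusted p = 0.759). The arrays did not overlap, which 38% of all genes also showed in this comparison. The other 7 transporters lay between -0.04 (Slc38a2) and 0.21 (Slc1a5). Leaving out stimulated KO replicate 2 turned Slc7a5 from 0.15 to -0.20.

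The difference between the stimulation responses, KO minus WT, was called for 0 of 8 transporters (limma) and 1 gene of all, 0.00661%. Slc1a4 was the 1 transporter with an unadjusted p below 0.05, as were 459 of all 15138 genes. Its response was lower in KO cells by -0.64 ± 0.18 (unadjusted p = 0.0115, adjusted p = 0.99986), with a 95% interval of -1.07 to -0.20. Without both replicate 2 KO arrays, which carried the high neutrophil marker levels, it was -0.56. Over 19 alternatives it lay between -0.75 and -0.54, and its adjusted p between 0.608 and 0.99999. In none of them was it called. The next in size were Slc7a1 at 0.37 ± 0.27 and Slc7a5 at -0.27 ± 0.36, whose intervals both included 0. Slc1a4 and Slc7a5 were called in WT cells and not in KO cells, but for neither did the difference between genotypes pass the adjusted test.

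Markers of other cell types differed between genotypes, in part through the replicate 2 KO arrays alone. All 9 B cell markers had negative KO minus WT values, with medians of -0.52 in medium and -0.61 after stimulation and none called. Without the replicate 2 KO arrays these medians were -0.40 and -0.71. The log2 of the summed linear signals of the B cell markers in medium was 5.02 to 5.17 in WT and 4.68 to 4.82 in KO cells. After stimulation it was 4.78 to 5.05 in WT and 4.12 to 4.14 in KO cells. The 5 natural killer cell markers had medians of -0.55 and -0.37, and of -0.53 and -0.32 without those arrays. The other lists below turned direction without them. The medians of the 11 neutrophil markers went from 1.90 to -0.42 in medium and from 1.83 to -0.56 after stimulation, and those of 8 erythroid and platelet markers from 0.75 to -0.55 and from 0.87 to -0.56. The 7 markers of monocytes, macrophages and dendritic cells went from 0.48 to -0.08 and from 0.25 to -0.09. The part of these cells in the transporter values was not tested.

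**Figure D4:**
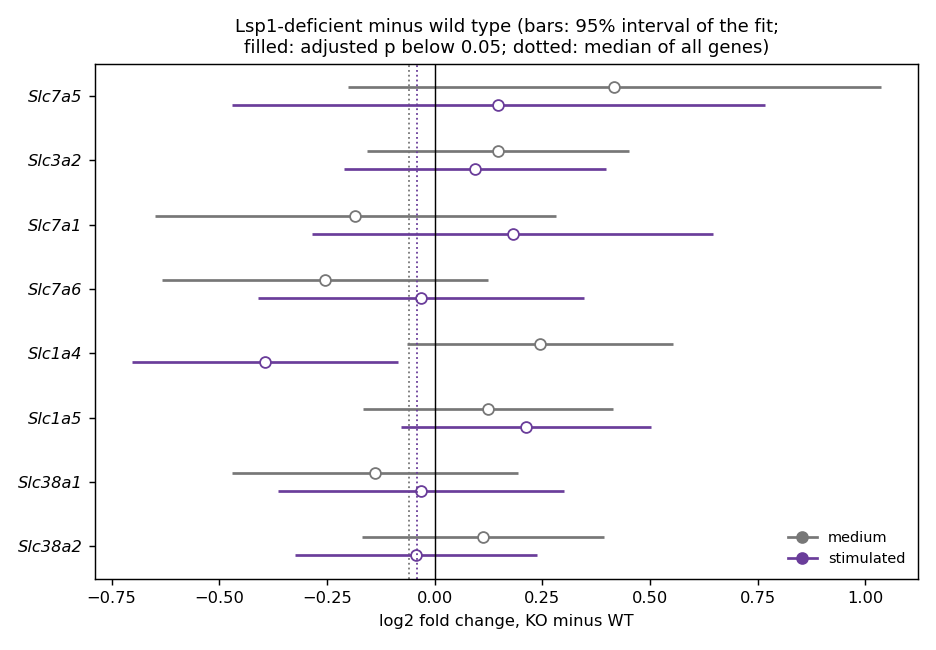
Log2 fold change, KO minus WT (horizontal axis), of the 8 tested transporters in medium (grey) and after stimulation (purple), with 95% intervals of the fit as bars and dotted lines at the medians of all genes. No point is filled, since none had an adjusted p below 0.05. Only the stimulated Slc1a4 interval, around -0.39, does not reach 0.

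The transporters were set beside 6 lists of genes that act with them. Over all genes 10.3% were called on stimulation in WT and 8.13% in KO cells, against which the counts of each list stand. Of 26 other plasma membrane amino acid transporters 15 were measured, and 1 was called, in both genotypes and in the lower direction. That was Slc43a2, which encodes LAT4, a carrier of leucine and other neutral amino acids that needs no heavy chain. It was 1.96 and 2.12 in medium and 0.55 and 0.77 after stimulation in WT cells, and 2.05 and 1.76 in medium and 0.79 and 0.29 after stimulation in KO cells. It fell by 1.38 ± 0.21 on the log2 scale in WT (limma, adjusted p = 0.0157) and by 1.36 ± 0.21 in KO cells (adjusted p = 0.0157). Leaving out any 1 WT array gave -1.49 to -1.28 in WT cells and ended that call, as did leaving out either KO medium array or stimulated KO replicate 2 in KO cells (-1.51 to -1.11). In the full set the leucine carrier genes Slc7a5, by its brightest probe, and Slc43a2 were called in opposite directions in WT cells. The list's medians were -0.14 and -0.18, below the 0.53 and 0.43 of the 9 transporters' tested members.

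Inside the cell, 1 of 10 measured lysosomal and intracellular transporters was called, higher in both genotypes. Slc15a3, a carrier of histidine and peptides, changed by 1.55 ± 0.29 in WT (limma, adjusted p = 0.0280) and 1.59 ± 0.29 in KO cells (adjusted p = 0.0263). The list's medians were -0.32 and -0.24. Of 10 mitochondrial carriers 1 was called higher in WT and 2 in KO cells. Slc25a22, which carries glutamate into mitochondria, was 0.25 and 0.18 in medium and 0.99 and 1.03 after stimulation in WT cells, and 0.20 and -0.09 in medium and 0.99 and 1.30 after stimulation in KO cells. It changed by 0.79 ± 0.16 in WT (adjusted p = 0.0321) and 1.09 ± 0.16 in KO cells (adjusted p = 0.0129). The ornithine carrier Slc25a15 was called in KO cells alone (1.17 ± 0.26, adjusted p = 0.0475), and the difference between genotypes in its response was not called.

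Of 34 genes of amino acid sensing by mTORC1, 2 rose and 1 fell in WT cells, and 1 rose and 1 fell in KO cells. These shares are not above the 10.3% and 8.13% of all genes called. Wdr59, a subunit of the GATOR2 complex, changed by 1.23 ± 0.12 in WT (limma, adjusted p = 0.00426) and 1.32 ± 0.12 in KO cells (adjusted p = 0.00319). Rragd, which encodes the GTPase RagD, rose by 2.19 ± 0.42 in WT cells (adjusted p = 0.0292), from -5.98 and -5.43 in medium. In KO medium, at -5.87 and -5.74, it was not well above background on either array. The stimulated KO signal measured 2.50-fold higher than that of KO medium, a change that was not called. Sesn1, of the sestrin family that includes a leucine sensor, fell by 1.17 ± 0.26 in WT (adjusted p = 0.0448) and by 1.25 ± 0.26 in KO cells (adjusted p = 0.0423). The list's medians, -0.05 and -0.02, were close to those of all genes.

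Of 19 measured genes for the fate of imported amino acids, 3 rose in WT and 1 in KO cells. Bcat1, the cytosolic transaminase of leucine, isoleucine and valine, went from -4.17 and -4.31 in WT medium to -1.02 and -1.20 in stimulated WT, and from -4.34 and -4.38 in KO medium to -1.07 and -0.62 in stimulated KO cells. The change was 3.13 ± 0.18 in WT (limma, adjusted p = 0.000688) and 3.52 ± 0.18 in KO cells (adjusted p = 0.000687). Arg1, an arginase (1.97 ± 0.40, adjusted p = 0.0362), and Psat1, a transaminase of serine synthesis (1.099 ± 0.26, adjusted p = 0.0498), were called in WT cells. In KO cells Arg1 went from -5.27 and -5.34 in medium to -3.41 and -3.97 after stimulation. Psat1 went there from 1.81 and 2.35 to 2.80 and 3.43. The difference between genotypes in their responses was not called. The list's medians were 0.03 and 0.04.

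Of 12 regulators known to act on the transporters 2 rose in each genotype. Myc was 0.25 and 0.54 in medium and 4.18 and 4.19 after stimulation in WT cells, and 0.35 and 0.71 in medium and 3.93 and 4.62 after stimulation in KO cells. It rose by 3.79 ± 0.26 in WT (limma, adjusted p = 0.00137) and 3.74 ± 0.26 in KO cells (adjusted p = 0.00145). Atf3, a stress-responsive transcription factor gene, rose by 2.11 ± 0.34 (adjusted p = 0.0198) and 2.61 ± 0.34 (adjusted p = 0.0106). Atf4 mRNA changed by 0.13 ± 0.14 (adjusted p = 0.567) and 0.21 ± 0.14 (adjusted p = 0.402), and ATF4 is known to be controlled largely by translation, which arrays do not measure. No gene of the 6 lists was called between genotypes. Of the calls made in these lists, those of Bcat1 in both genotypes and of Myc in WT cells held under all 20 alternatives. The others were lost under 1 (Wdr59 and Myc in KO cells) to 14 (Slc25a15 in KO cells) of the alternatives. For each of these genes but the first pair, leaving out 1 array was enough.

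**Figure D5:**
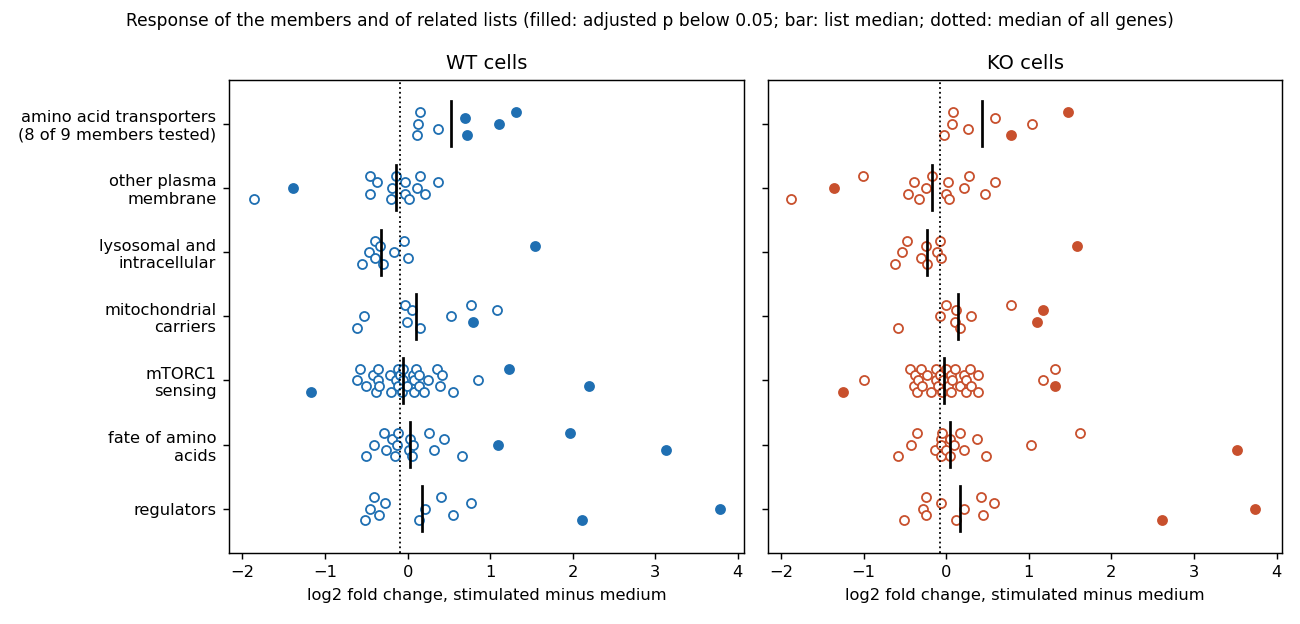
Log2 fold change, stimulated minus medium (horizontal axis), of every tested gene of the transporter set and of 6 related lists, in WT (left) and KO cells (right). Filled points have an adjusted p below 0.05, vertical bars are list medians and the dotted line is the median of all genes. The transporter medians are 0.53 and 0.43, and the medians of the 6 lists lie between -0.32 and 0.17.

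The transporters did not follow 1 pattern over the 8 arrays. Slc7a5 and Slc1a5 had a Pearson correlation of 0.96, Slc7a1 and Slc1a5 of 0.95, and Slc7a1 and Slc7a6 of 0.92. Slc7a5 and Slc3a2, the chains of LAT1, had 0.72, and Slc38a1 and Slc38a2 had -0.05. Among the 15113 genes with a value on every array the 5 most like Slc7a5 were Insm1 (0.996), the alanyl-tRNA synthetase gene Aars (0.995), the purine salvage gene Aprt (0.994), Marcksl1 (0.993) and Rasl2-9 (0.993). No transporter was among those 5, the nearest being Slc1a5 at place 218. The gene most like Slc7a1, singled out after the values were seen, was Slc25a22 at 0.999. These correlations are descriptions over 8 arrays that share 1 slide and fall into 4 medium and 4 stimulated arrays.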

How the data were processed

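The files are scanner outputs. Per the file headers they were written by Agilent Feature Extraction 10.7.1.1 on the build mm9, and the deposited processed signal is a spot intensity on a linear scale after that program's background subtraction. The value table deposited for the series repeats the median spot intensities. Control and outlier spots were left out here, repeated spots averaged, and log2 of the intensity scaled to the 75th percentile of each array. A probe stayed in if any 1 group had both its arrays well above background for it (37255 probes), and probes were named through their accessions with a RefSeq table (GRCm38.p6), which left 15138 genes by their brightest probe. The share of probes well above background ranged over the arrays from 58.4% to 69.2%. The 2 arrays per group limit the precision.

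limma 3.58.1 in R 4.3.3 fitted 4 group means over all 8 arrays for 5 contrasts, two-sided. An exact permutation test of 2 arrays against 2 cannot go below p = 0.333. The 4 pairs of transporters were compared by exact permutation of 4 stimulated against 4 medium arrays. The scripts were tested on simulated data. All arrays share 1 slide, with treatments in different rows and genotypes in different columns; slide position cannot be told apart from group.

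The members, lists and tests were chosen with earlier results of these data known. Named genes were the 9 transporters, Lsp1, Myc, Atf4, at most 4 called genes per list, comparison and direction by size of change, and the 5 genes most correlated with Slc7a5. Slc7a11 was to be treated likewise but did not pass the filter. Promoter sequences are RefSeq's. Alternatives were other scalings, background correction, filters, probes, fits, replicate blocks and arrays left out.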

Additional observations from a re-analysis of the deposited data

How the results depend on the processing

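The count of called transporters was 4 for stimulation in WT cells under every alternative but leaving out 1 array (0 to 4) and 2 in KO cells, where leaving out 1 array gave 0 to 3, fitting only the groups compared 0, leaving out both replicate 2 KO arrays 0, and trend and robust variance or the stricter filter on all 8 arrays 3. For all comparisons between genotypes no transporter was called under any alternative. An arm left with 1 array was assumed to vary like the other groups. Lsp1 missed the threshold when only the groups compared were fitted (-3.79, adjusted p = 0.0690, and -3.35, adjusted p = 0.0753) and without both replicate 2 KO arrays (-3.71, 0.170, and -3.33, 0.0704). With each array left out in turn it lay between -3.92 and -3.67 in medium and between -3.39 and -3.32 after stimulation, where it missed without stimulated WT replicate 2. No pair difference passed the threshold under median scaling, normexp, the mean over probes, the block, another probe or any 1 array left out. These tests had little room to pass. With 4 arrays against 4 the smallest exact permutation p is 0.0286, and 1 pair alone at that value adjusts to 0.114. With the block the smallest is 0.125, so no pair could pass there. The direction of the pair differences held, except that Slc7a5 minus Slc7a6 was -0.361 with the second Slc7a5 probe. That alternative was added after seeing the data.

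The labels do not say whether replicate numbers pair the arrays, and the main fit did not pair them. Deviations of same-numbered arrays correlated at 0.16 between WT groups and 0.74 between KO groups. Between genotypes they correlated at -0.06 in medium and -0.24 after stimulation. Same-numbered KO arrays thus deviated together, which the main fit left out of account. A replicate block over all arrays or within genotype called 4 transporters in WT and 3 in KO cells. The third was Slc7a5 (adjusted p = 0.0325 and 0.0140). With the block, the 4 pair differences of 0.69, 1.08, 0.33 and -0.16 had exact permutation p of 0.125, 0.125, 0.375 and 0.375. The smallest p that this test can give is 0.125. Crossed numbers on the stimulated arrays, added after seeing the data, were fitted only for KO minus WT after stimulation. There 0 transporters were called, as in the main fit.

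Small uncalled values changed sign. For KO minus WT after stimulation, without stimulated KO replicate 2 Slc7a5 was -0.198, Slc3a2 -0.0186 and Slc7a1 -0.0194, and the same without both replicate 2 KO arrays. With the block within genotype Slc7a5 was -0.0271, Slc3a2 -0.00282 and Slc38a1 0.0591. Slc38a1 was 0.00578 with normexp, 0.0659 as the mean over probes and 0.149 and 0.0796 with its other probes, Slc7a5 -0.0311 with its other probe, and Slc7a6 0.0468 without stimulated WT replicate 2. In medium, without KO replicate 2 or both replicate 2 KO arrays, Slc38a1 was 0.0289 and Slc7a1 6.3e-05, and the other Slc38a1 probes gave 0.0490 and 0.0242. For stimulation in KO cells Slc38a2 was 0.000875 without KO medium replicate 2, 0.0075 without stimulated KO replicate 2 and 0.0354 without both, and Slc3a2 -0.0481 without stimulated KO replicate 2 and -0.00976 without both. For the difference between responses, median scaling gave Slc1a5 -0.0276 and Slc38a1 -0.00868. There Slc38a1 was -0.0601 without KO medium replicate 2 and -0.0557 without both, Slc3a2 0.0157 without stimulated WT replicate 1 and 0.0592 without stimulated KO replicate 1, Slc7a5 0.0752 without the latter, and Slc7a1 -0.0195 without both replicate 2 KO arrays. With 1 array left out at a time these values ranged, for KO minus WT after stimulation, from -0.198 to 0.492 (Slc7a5), -0.0186 to 0.205 (Slc3a2), -0.0194 to 0.381 (Slc7a1) and -0.111 to 0.0468 (Slc7a6). In medium they ranged from -0.305 to 0.0289 (Slc38a1) and -0.369 to 6.3e-05 (Slc7a1), for stimulation in KO cells from -0.0615 to 0.0075 (Slc38a2) and -0.0481 to 0.176 (Slc3a2), and for the difference from -0.0601 to 0.274 (Slc38a1), -0.615 to 0.0752 (Slc7a5) and -0.164 to 0.0592 (Slc3a2). The cause was not tested.

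Median scaling moved the median of all genes from -0.09 to 0.02 for stimulation in WT cells and from 0.02 to -0.09 for the difference between responses. The planned normexp on mean signals was not run, and median signals were used instead, chosen after seeing the data. With 2 arrays a group, differences between genotypes of the size seen here could not be told from the spread between arrays.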
